A study of Homo sapiens with 12 samples.

Results

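The adhesion G protein-coupled receptors were taken from the deposited expression table as every gene whose symbol starts with ADGR, a letter from A to G, L or V, and a digit, which gave 32 of the 35337 genes in the table. They fell into 8 subfamilies (A, B, D, E, F, G, L and V), and by the GENCODE v44 annotation of GRCh38 28 were protein-coding genes and 4 were pseudogenes (ADGRE4P, ADGRF2, ADGRF5P1 and ADGRF5P2). The receptors of subfamily C carry the symbols CELSR1, CELSR2 and CELSR3, were not taken by this rule, and are described with their partners further on. The study profiled messenger RNA of EndoC-βH3, a line of human beta-like cells derived from fetal pancreas, with CEL-seq2, a method that sequences transcripts from their 3′ ends. The line carries hTERT and the SV40 large T antigen, flanked by sites for recombination, and a CreER recombinase that removes them when 4-hydroxy-tamoxifen (4-OHT) is added. All 12 libraries came from this 1 line with the genotype given as WT: 6 of non-senescent control cells and 6 of cells made senescent by 3 weeks of 4-OHT, whose concentration is given in different units by the sample labels and by the study's methods. Each group held 2 libraries of batch A and 4 of batch B. The sources name 2 independent batches and do not say whether libraries within a batch came from separate cultures, so p-values measure the spread between these libraries.

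Adhesion GPCRs join a long extracellular part, built from cell-adhesion domains, to a membrane-spanning receptor. Most carry a GAIN domain that cuts the protein in place, and the stretch next to the cut can act as a tethered agonist that starts signalling through G proteins when the outer fragment is moved or shed. In endocrine and neural cells the family is known for sensing neighbouring cells and matrix, and the latrophilins of subfamily L were first known as receptors of the spider toxin that triggers release of transmitters and of insulin.

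The sequences around the annotated starts are shown for the receptors on which the results turn. ADGRA1 and ADGRL3 had the largest rises of the family, and ADGRL2 was the only receptor of the 3 that fell with a promoter in the table used; promoters of 19 of the 32 genes matched by symbol. Each run holds 250 bases before and 50 bases after the RefSeq start on GRCh38.p14, 5′ to 3′ along the gene, and capitals mark the GC box GGGCGG on either strand.
ADGRA1: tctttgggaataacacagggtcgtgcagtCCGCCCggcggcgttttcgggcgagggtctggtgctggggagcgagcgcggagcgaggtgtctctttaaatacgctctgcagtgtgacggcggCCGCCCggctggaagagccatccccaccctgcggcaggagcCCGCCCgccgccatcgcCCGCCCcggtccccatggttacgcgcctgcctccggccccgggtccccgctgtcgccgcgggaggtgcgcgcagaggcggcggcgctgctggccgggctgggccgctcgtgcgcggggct
ADGRL3: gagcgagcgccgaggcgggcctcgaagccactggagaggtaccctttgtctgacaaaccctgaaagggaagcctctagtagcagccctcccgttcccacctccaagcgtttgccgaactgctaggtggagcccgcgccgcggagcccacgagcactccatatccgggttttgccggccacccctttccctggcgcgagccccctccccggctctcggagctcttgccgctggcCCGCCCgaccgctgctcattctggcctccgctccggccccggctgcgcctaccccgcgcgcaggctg
ADGRL2: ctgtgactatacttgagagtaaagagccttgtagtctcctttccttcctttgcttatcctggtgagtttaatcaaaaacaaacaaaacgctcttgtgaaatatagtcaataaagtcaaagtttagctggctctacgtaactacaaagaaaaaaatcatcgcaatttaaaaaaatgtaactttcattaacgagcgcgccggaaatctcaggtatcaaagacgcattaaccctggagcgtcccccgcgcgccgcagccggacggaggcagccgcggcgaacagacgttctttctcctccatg
They lie at chr10:133087674-133087973, chr4:61200076-61200375 and chr1:81800126-81800425, all on the plus strand, and the table lists 2, 2 and 8 starts for these genes, of which the first is shown. The windows of ADGRA1 and ADGRL3 hold the GENCODE start of the gene. That of ADGRL2 lies inside the gene, which GENCODE places at chr1:81306147-81993932. Other ADGRL2 starts were not read, so its base content describes this window and not the gene. The ADGRA1 run held 4 GC boxes, the ADGRL3 run held 1 and the ADGRL2 run held 0, while 44.6% of the 27305 promoters of this length held at least 1. GC content was 74% for ADGRA1, 69.7% for ADGRL3 and 44.7% for ADGRL2, against a median of 58.3% over all promoters, and the runs held 41, 30 and 19 CpG, against a median of 14. No match in these 3 windows was found on either strand for a TATA box (TATAAA, in 12% of all promoters), an E2F site (TTTGGCGC or TTTCCCGC, in 2.31%), a CRE (TGACGTCA, in 1.98%), an E-box (CACGTG, in 7.43%), a homeodomain core (TAATTA, in 4.98%), a MAF core (TGCTGA, in 17.4%) or a p53 half-site (in 6.54%). These matches describe letters in a window only.

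Library totals ranged from 8873569 to 17106776 reads in batch A and from 4672924 to 7063264 in batch B. The 32 genes together took 145 to 249 ppm of the reads, so single receptors rest on few reads. A gene without reads in a library may still have up to 3 reads at that depth, which is 0.175 to 0.642 ppm depending on the library and covers counting error only. In the check of the labels, the cyclin-dependent kinase inhibitor CDKN1A had a mean normalised read count of 45.1 ± 20.2 (SD, n = 6) in non-senescent and 981 ± 661 (n = 6) in senescent cells, and the proliferation marker MKI67 had 537 ± 138 and 73.6 ± 11.0. Insulin (INS) had 19853 ± 8849 and 99547 ± 60362, and 4 of 6 beta-cell markers were higher in senescent cells (INS, IAPP, PDX1 and MAFA). NKX6-1 (-0.37) and SLC30A8 (-0.16) were not called. Both changed sign between batches, NKX6-1 from 0.11 in A to -0.61 in B and SLC30A8 from -0.63 in A to 0.08 in B. CDKN1A and MKI67 kept their sign, but the size of their response differed between batches. Senescent CDKN1A averaged 133 normalised read counts over the batch A libraries and 1404 over the batch B ones, which its pooled SD mixes. Its log2 rise was 2.18 for A against 4.78 for B (limma interaction, adjusted p = 0.00191). MKI67 fell further in A, by -3.45, than in B, by -2.51 (limma interaction, adjusted p = 0.022). Markers of other pancreatic cells were also read and were called in both directions. The acinar carboxypeptidase CPA1 was higher in senescent cells, at 43.6 ± 10.4 and 211 ± 46.9 normalised read counts (log2 fold change 2.25). The duct keratin KRT19 (-1.35), the alpha-cell hormone GCG (-1.30) and the delta-cell genes HHEX (-0.74) and SST (-0.64) were lower, and the alpha-cell gene IRX2 was not called. GCG was at -2.36 in A and -0.77 in B, and IRX2 at 0.38 in A and -0.87 in B. Their part in the results on the receptors was not tested. In bulk RNA of this 1 line, fewer cells that express a marker and less of its RNA per cell cannot be told apart.

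**Figure D1:**
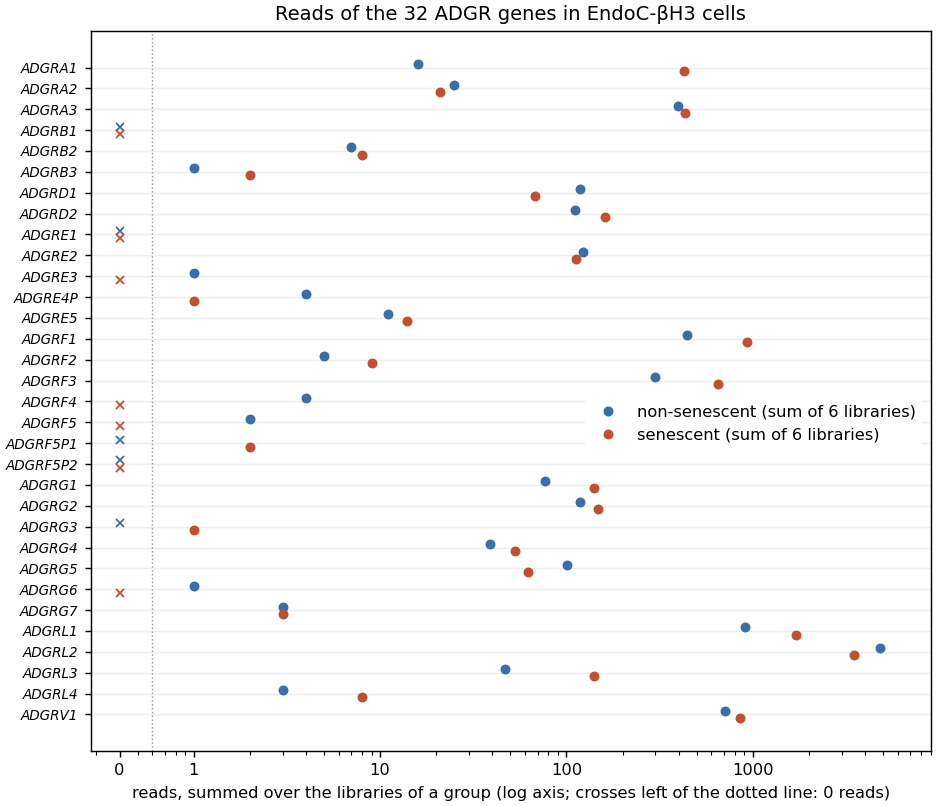
Reads of each of the 32 ADGR genes (rows), summed over the 6 non-senescent (blue) and the 6 senescent (red) libraries, on a log axis, with crosses for sums of 0. ADGRA1 goes from 16 to 425 reads, and the senescent libraries as a group were sequenced more deeply, so small gaps between colours are not differences in level.

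Of the 32 genes, 29 had at least 1 read (90.6%, against 64.3% of all genes) and 15 reached the mean normalised read count of 5 over the 12 libraries that was asked for testing (46.9%, against 39.2%). A normalised read count is the reads of a gene divided by a size factor of its library. No read was found in any library for ADGRB1, ADGRE1 and ADGRF5P2. The other 14 genes with reads lay below that mean. ADGRA2, a co-receptor for WNT7 signalling in brain vessels, had 46 reads in all 12 libraries together, ADGRE5, the leukocyte receptor CD97, had 25, ADGRB2 had 15, ADGRF2 had 14 and ADGRL4, an endothelial receptor, had 11. ADGRG7 had 6 reads, ADGRE4P 5, ADGRF4 4, ADGRB3 3, ADGRF5 2, ADGRF5P1 2, and ADGRE3, ADGRG3 and ADGRG6 1 each. ADGRE5 reads were uneven, with 13 in senescent B1 and 8 in non-senescent B3. When these 14 genes were tested without the filter, limma called 0 of them, with 0 at an unadjusted p under 0.05 and a lowest Benjamini-Hochberg adjusted p of 0.314 (ADGRA2). The endothelial marker VWF had 0 reads, the 4 endothelial markers together summed to 4.77 to 24.8 normalised read counts in non-senescent and 3.74 to 14.5 in senescent libraries, and the 4 immune markers to 49.7 to 77.8 and 37.7 to 64.0, of which PTPRC was lower in senescent cells (log2 fold change -1.58, limma, adjusted p = 0.0072); their part in the counts of these receptors was not tested.

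The comparison of senescent with non-senescent cells asked which receptors change when EndoC-βH3 cells are made senescent. Of the 15 receptors tested, 6 were higher (ADGRA1, ADGRL3, ADGRF1, ADGRF3, ADGRG1 and ADGRL1) and 3 were lower (ADGRL2, ADGRD1 and ADGRG5) in senescent cells, where a call needed a limma adjusted p below 0.1 together with more than 1.5-fold change, with batch in the model. These 9 are 60% of the receptors tested, where 23.4% of the 13847 genes tested were called, 11.6% higher and 11.8% lower. ADGRA1 entered the test only through its senescent libraries, so the share of the tested receptors is not a share of the family. The median log2 fold change of the 15 was 0.24 and the median of its size was 0.67, against 0.01 and 0.33 over all genes tested. When libraries were scaled to the same total, the median over all genes tested moved to -0.09, the share of calls that were higher went from 49.6% to 36.9%, and 4 receptors were called higher and 3 lower, ADGRL1 (0.55) and ADGRG1 (0.57) no longer being called. Fold changes are differences of log2(normalised read count + 1), which understates the change of genes with few reads.

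**Figure D2:**
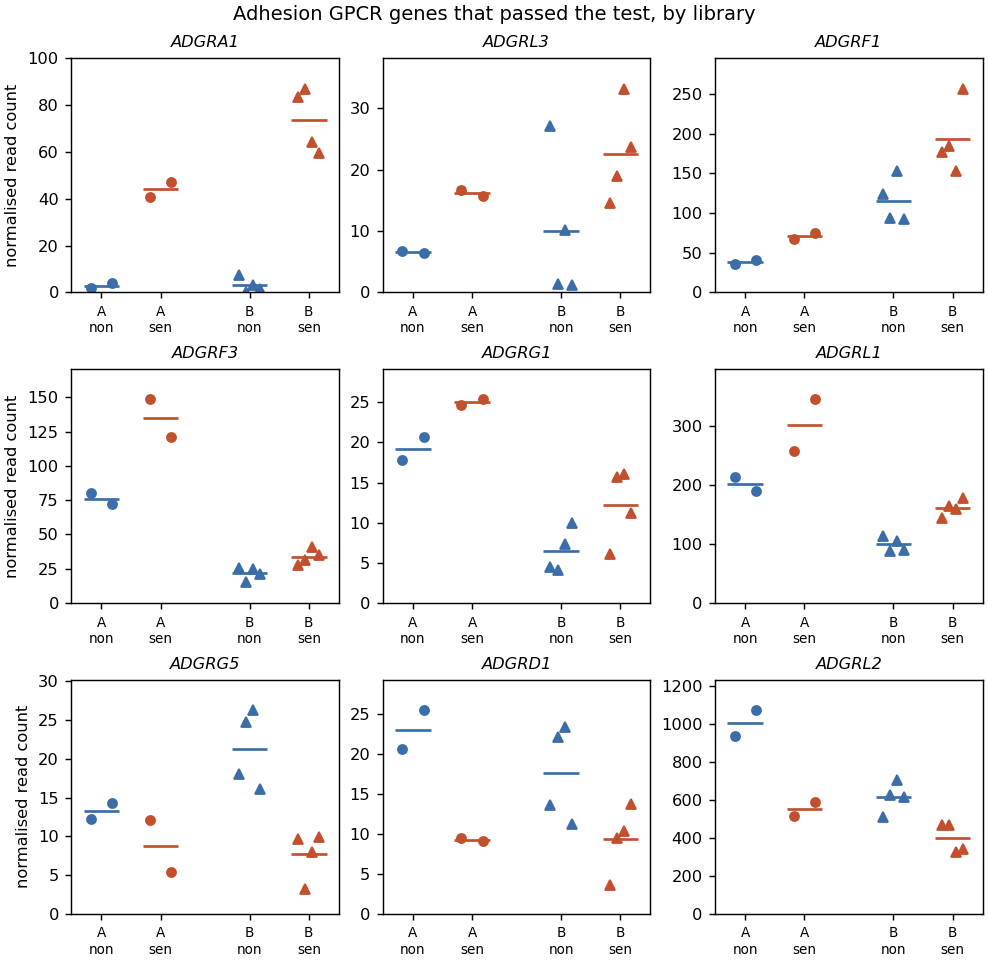
Normalised read count (linear axis, from 0) of the 9 called ADGR genes, one point per library, for non-senescent (non, blue) and senescent (sen, red) cells of batch A (circles) and batch B (triangles), with lines at the means. ADGRA1 is 40.9 to 87.1 in senescent and 0 to 7.53 in non-senescent libraries, and ADGRF1, ADGRF3 and ADGRL1 differ between batches in both groups.

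ADGRA1, a receptor with a short extracellular part and no known ligand, was almost unread in non-senescent cells and read in every senescent library. Its normalised read counts in non-senescent libraries were 1.67 and 3.97 in batch A and 7.53, 0, 2.92 and 1.24 in batch B. In senescent libraries they were 40.9 and 47.1 in batch A and 83.6, 87.1, 64.1 and 59.8 in batch B. Every senescent library lay above every non-senescent one, on 48 to 91 reads against 0 to 5 reads per library. The log2 fold change was 4.31 ± 0.42 (SE, limma, adjusted p = 3.6e-07), a 19.8-fold difference; the difference within batch A was 3.62 and that within batch B 4.65. ADGRA1 lies at chr10:133087924-133131675 on GRCh38, with the antisense gene ADGRA1-AS1 on the opposite strand. ADGRA3, of the same subfamily and with no settled ligand, was at 60.8 ± 22.8 (SD, n = 6) and 54.8 ± 18.3 normalised read counts. Its log2 fold change was -0.15 (95% interval -0.59 to 0.29), with -0.30 in A and -0.08 in B. The groups overlapped over all libraries and within batch B. In batch A the senescent libraries, at 66.0 and 73.7, lay below the non-senescent ones, at 75.0 and 98.5.

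The 5 genes whose log2 values most resembled ADGRA1 over the 12 libraries, after subtraction of batch means, were PBLD (Pearson r 0.986), PPP1R16A (0.981), NPPC (0.980), TMEM86B (0.979) and PPIC (0.979). All 5 are higher in senescent cells, with log2 fold changes between 1.21 and 2.93. The libraries share the group difference, which alone gives any gene that separates the groups a high r, and no test was made of these values. Among the receptors, ADGRL1 came closest to ADGRA1 (r 0.932, rank 185 of 13846 genes).

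The latrophilins moved in opposite directions. ADGRL1, which binds the spider toxin, teneurins and neurexins, had non-senescent normalised read counts of 213 and 189 in batch A and 113, 88.1, 105 and 89.5 in batch B, and senescent counts of 257 and 344 in A and 144, 164, 159 and 177 in B. The groups did not overlap within either batch, and batch A was above batch B in both groups. Its log2 fold change was 0.66 ± 0.11 (SE, limma, adjusted p = 1.74e-04); batch A alone gave 0.57 and batch B alone 0.70. ADGRL2, a latrophilin that binds teneurins and FLRT proteins at synapses, had 938 and 1073 in batch A and 507, 628, 706 and 613 in batch B in non-senescent cells. Its senescent counts were 515 and 589 in A and 468, 465, 326 and 341 in B. Groups were apart within each batch here too, in the other direction, and the log2 fold change was -0.70 ± 0.11 (limma, adjusted p = 7.29e-05), -0.86 in A and -0.63 in B.

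ADGRL3, a latrophilin that pairs with FLRT3 and teneurins, had few reads in either group. Its normalised read counts were 6.67 and 6.36 in A and 27.1, 1.38, 10.2 and 1.24 in B in non-senescent cells, against 16.6 and 15.7 in A and 14.5, 18.9, 33.2 and 23.7 in B in senescent cells. The non-senescent library B1 was above 5 of the 6 senescent libraries, so the groups overlapped in batch B and were apart in batch A. The log2 fold change was 1.61 ± 0.51 (limma, adjusted p = 0.0197), at 1.19 in A and 1.82 in B, and without non-senescent B1 it was 2.04. ADGRL4 had 11 reads and lay below the filter.

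**Figure D3:**
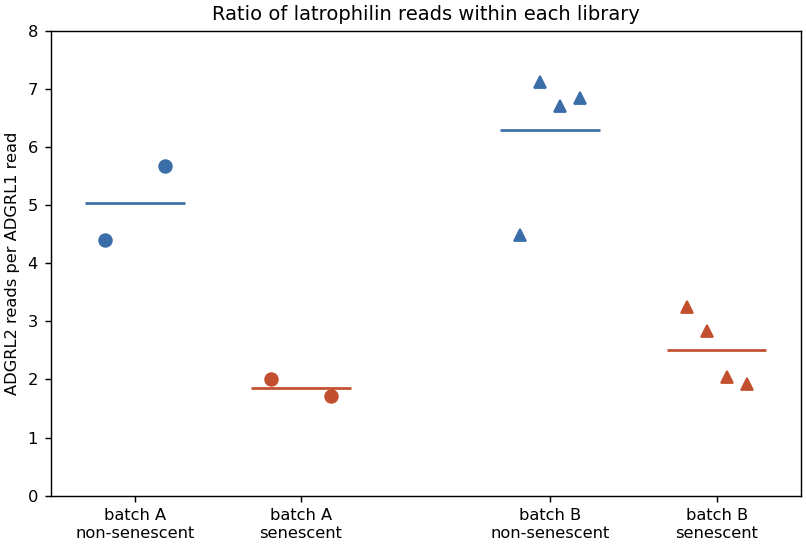
Reads of ADGRL2 per read of ADGRL1 in each of the 12 libraries, by group and batch. The ratio was 4.41 to 7.13 in non-senescent and 1.71 to 3.24 in senescent libraries, with no overlap.

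Within a library the ratio of the 2 larger latrophilins does not depend on the scaling of libraries. ADGRL2 had 4.41 to 7.13 reads per ADGRL1 read in the 6 non-senescent libraries (median 6.19) and 1.71 to 3.24 in the 6 senescent ones (median 2.03), so the groups did not overlap. Of all reads of ADGRL1, ADGRL2 and ADGRL3, ADGRL2 took 78.4% to 87.5% in non-senescent and 62.1% to 74.7% in senescent libraries. Salmon divides reads among similar transcripts, so the reads of these paralogs are estimates.

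In subfamily F, ADGRF1, a Gs-coupled receptor for the lipid synaptamide, was at 35.6 and 40.5 in batch A and 123, 93.6, 153 and 91.9 in batch B in non-senescent cells. Its senescent counts were 66.9 and 74.9 in A and 177, 185, 153 and 257 in B. Batch B was above batch A in both groups, and the groups were apart in A but overlapped slightly in B. The log2 fold change was 0.79 ± 0.16 (SE, limma, adjusted p = 6.53e-04), with 0.88 in A and 0.74 in B. ADGRF3, an orphan receptor, had 80.0 and 72.3 in A and 25.6, 15.1, 24.8 and 21.1 in B in non-senescent cells, and 149 and 121 in A and 27.9, 31.5, 41.2 and 34.9 in B in senescent cells. Groups did not overlap within either batch, and batch A was above batch B. The log2 fold change was 0.69 ± 0.18 (limma, adjusted p = 0.00527), with 0.81 in A and 0.63 in B. SELENOI lies over ADGRF3 on the opposite strand. Overlaps were read from gene starts and ends, not exons, and the strand setting of the counting is not given in the sources used here. Whether reads of genes that overlap on opposite strands were kept apart is therefore not known. Of the other receptors called, ADGRA1, ADGRL1, ADGRD1 and ADGRL3 each have an antisense gene on the opposite strand (ADGRA1-AS1, ADGRL1-AS1, ADGRD1-AS1 and ADGRL3-AS1), whose values were not analysed here, and ADGRG1 and ADGRL2 overlap opposite-strand genes too. SELENOI had 5478 reads and a log2 fold change of 0.34 (limma, adjusted p = 0.00607), under the fold limit.

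Of subfamily G, 4 receptors were tested and 2 were called, 1 in each direction. ADGRG1, a receptor for collagen III and transglutaminase 2 that is abundant in islets, was at 17.8 and 20.7 in A and 4.52, 4.13, 7.31 and 9.94 in B in non-senescent cells, and at 24.7 and 25.4 in A and 6.06, 15.7, 16.0 and 11.2 in B in senescent cells. The groups overlapped in B through senescent B1, and batch A was above batch B. The log2 fold change was 0.67 ± 0.31 (SE, limma, adjusted p = 0.0987), just inside the limit, with 0.37 in A and 0.81 in B, and the call was lost in 10 of 12 fits that left out 1 library. ADGRG5, a Gs-coupled receptor of blood cells, was at 12.2 and 14.3 in A and 18.1, 24.8, 26.3 and 16.2 in B in non-senescent cells, and at 12.1 and 5.44 in A and 9.69, 3.15, 8.01 and 9.96 in B in senescent cells. Every senescent library lay below every non-senescent one, by a small margin in batch A. The log2 fold change was -1.16 ± 0.33 (limma, adjusted p = 0.00906), with -0.63 in A and -1.43 in B, on 3 to 27 reads per senescent library. Of the 4 immune markers 3 were tested and 1 was called: PTPRC was at 13.5 ± 8.58 and 3.26 ± 1.25 normalised read counts, while CD68 (log2 fold change 0.06) and AIF1 (-0.18) were not called and CD14 had 7 reads. The log2 difference of PTPRC was -0.34 in A, where its groups overlapped, and -2.20 in B. The part of these markers in the fall of ADGRG5 was not tested. ADGRG2, of epididymal epithelium, had 18.3 ± 6.05 and 17.6 ± 6.90 normalised read counts (SD, n = 6) and ADGRG4, known from enterochromaffin cells, had 6.91 ± 4.01 and 8.39 ± 4.91, with log2 fold changes of -0.08 (95% interval -0.61 to 0.45) and 0.27 (-0.62 to 1.17).

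ADGRD1, a Gs-coupled receptor that can activate itself through its tethered agonist, was lower in senescent cells. It was at 20.6 and 25.4 in A and 13.6, 22.0, 23.4 and 11.2 in B in non-senescent cells, and at 9.43 and 9.06 in A and 3.64, 9.45, 10.3 and 13.7 in B in senescent cells. Only batch A kept the groups apart. The log2 fold change was -1.01 ± 0.31 (SE, limma, adjusted p = 0.0167), with -1.22 in A and -0.91 in B. ADGRD2, an orphan receptor, had means of 20.8 ± 8.03 (SD, n = 6) without and 24.0 ± 6.80 with senescence, a log2 fold change of 0.24 (95% interval -0.23 to 0.72). ADGRE2, a myeloid receptor, had 25.3 ± 14.8 and 18.8 ± 11.2, a log2 fold change of -0.39 (-0.93 to 0.14), and its near copies ADGRE3 and ADGRE5 make the division of its reads uncertain. ADGRV1, the very large receptor of inner-ear hair cells, had 115 ± 19.2 and 108 ± 22.9, a log2 fold change of -0.10 (-0.36 to 0.16). Over all libraries the groups of these 3 receptors overlapped, and none was called. ZNF333 lies over ADGRE2 and LYSMD3 over ADGRV1 on the opposite strand, with log2 fold changes of -0.04 and -0.01.

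**Figure D4:**
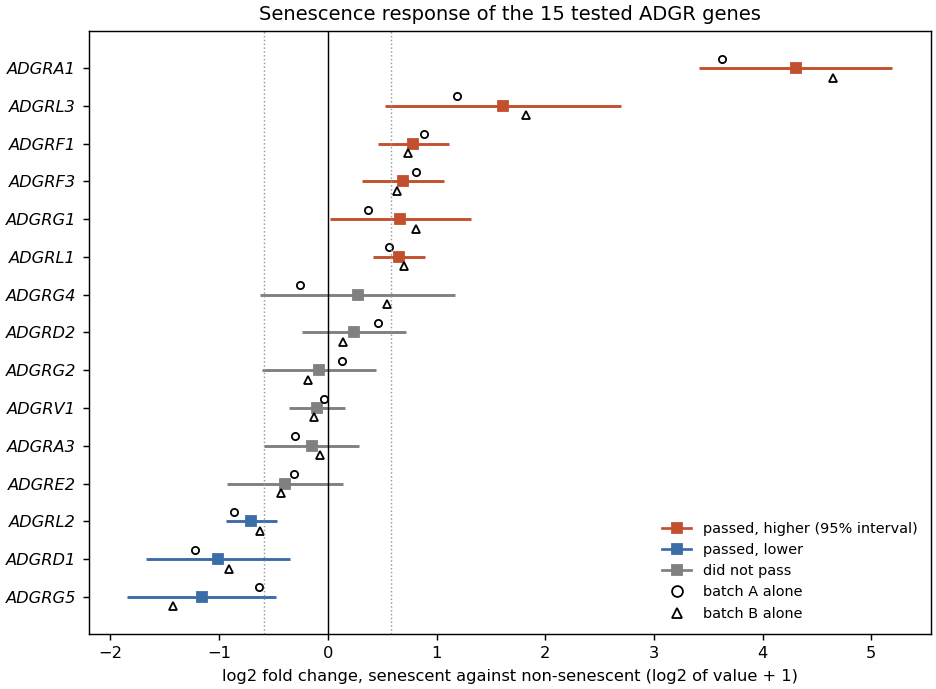
Log2 fold change, senescent minus non-senescent, of the 15 tested ADGR genes with the 95% interval, and the difference within batch A and within batch B. ADGRA1 lies at 4.31, and the intervals of the 9 called receptors do not reach 0; dotted lines mark the fold limit of 1.5.

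The responses within the batches had the same sign for 13 of 15 receptors (70.4% of all genes tested had the same sign), and for all 9 that were called. For 5 receptors (ADGRA1, ADGRF3, ADGRG5, ADGRL1 and ADGRL2) the groups were apart in the same direction in both batches, which 23.8% of all genes tested were. A difference of the response between batches was called for 0 of 15 receptors by the interaction term of limma, with 0 at an unadjusted p under 0.05 and a lowest adjusted p of 0.637, where 4.21% of all genes tested were called. An interaction test with 2 libraries per group in batch A has wide intervals, and equal responses were not shown.

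Many receptors also differed between batches, as did many genes outside the family. The batch term of the same model, examined after the data had been seen, was called for 9 of 15 receptors at the same limits (53.1% of all genes tested), with 3 higher and 6 lower in batch B. ADGRE2 was 1.69 and ADGRF1 1.48 higher in batch B on the log2 scale, and ADGRD2 was 0.75 higher. ADGRF3 differed by -1.88, ADGRG1 by -1.28, ADGRL1 by -0.95, ADGRA3 by -0.74, ADGRG2 by -0.73 and ADGRL2 by -0.60. In size the batch term exceeded the senescence term for 10 of 15 receptors, 4 of them among the 9 called, and 5 receptors were called for both. The matching shares over all genes tested were not computed, so these counts are not given as a trait of the receptors. For 8 receptors the batches were apart in the same direction in both groups, as were 52.4% of all genes tested. Every batch holds both groups, so the senescence term was estimated within batches.

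**Figure D5:**
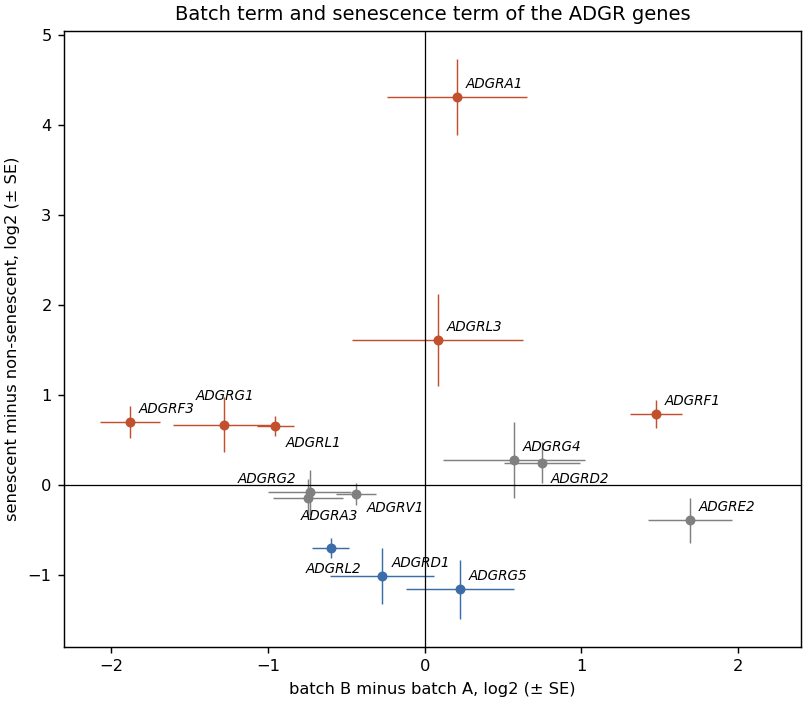
Batch term (B minus A) on the x axis against the senescence term (senescent minus non-senescent) on the y axis, in log2 with SE, for the 15 tested ADGR genes; red is called higher, blue lower, grey not called. ADGRA1 and ADGRL3 lie near 0 on the batch axis, while ADGRF3 and ADGRF1 lie at -1.88 and 1.48.

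Partners of the family were read from lists of known ligands, downstream proteins and scaffolds. Of 31 ligands and co-receptors, 21 were tested, 4 were higher and 1 was lower, with a list median of 0.30. Over all genes tested 23.4% were called, 11.6% higher and 11.8% lower, so the total called in this list is near that share. UNC5B rose by 1.53 ± 0.36 (SE, limma, adjusted p = 0.00246), and UNC5A by 1.41 ± 0.13 (limma, adjusted p = 2.21e-07). Both are netrin receptors that also bind FLRT proteins. C1QL1, a secreted ligand of subfamily B, had a mean of 651 ± 150 in non-senescent and 1432 ± 383 in senescent cells (SD, n = 6) and rose by 1.12 on the log2 scale, while its receptor ADGRB3 had 3 reads in the 12 libraries. NRXN2, a neurexin and presynaptic partner of ADGRL1, rose by 1.05 and RTN4RL2, a receptor of the Nogo family, fell by 0.70. FLRT1, C1QL2 and C1QL4 had 0 reads.

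Of the 12 genes of planar cell polarity, 10 were tested, 1 was higher (PRICKLE1, 0.62) and 3 were lower (PRICKLE2, -0.93; FZD6, -0.85; DVL2, -0.65), with a list median of -0.20. Among the CELSR receptors, CELSR1 had 5 reads, CELSR2 had a log2 fold change of 0.44 under the fold limit (limma, adjusted p = 0.0755) and CELSR3 of -0.08 (limma, adjusted p = 0.652). Of 29 G protein subunits and effectors 26 were tested, 3 were higher and 2 lower, with a list median of 0.20. DOCK1, a Rac exchange factor downstream of subfamily B, rose by 1.17, and the arrestins ARRB1 and ARRB2 went in opposite directions, by 1.07 ± 0.24 and -1.28 ± 0.09 (SE, limma, adjusted p = 0.00206 and 4e-09). The adenylyl cyclase ADCY3 differed by -1.99 and the inhibitory subunit GNAI1 by 0.69. Of the 11 PDZ scaffolds, which hold receptor tails at the membrane, 9 were tested, 1 was higher (MAGI2, 0.74) and 0 were lower, with a list median of 0.14. These counts stand beside calls for 23.4% of all genes tested, and the lists were described by counts and medians only.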

How the data were processed

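RNA of the 12 libraries was profiled by CEL-seq2. By the methods, the authors trimmed reads with Cutadapt, aligned them to GRCh38, counted them with Salmon 0.13.1 and normalised them with DESeq2; transcript annotation, strand setting and handling of molecular identifiers are not given in the sources used here. The deposited values are a signal, reads per gene divided by a size factor of the library, named normalised read counts. The deposited log2 fold changes and their errors, the test score and the p-values are the authors' own comparison and were not used. All non-zero values were whole multiples of the value of 1 read, within 0.001 reads (100% of 196021 values), so whole reads were recovered.

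The values are not counts, so log2(normalised read count + 1) was tested with limma 3.58.1 in R 4.3.3, with intensity trend and terms for batch and group, over 13847 genes with a mean of at least 5; adjusted p-values are Benjamini-Hochberg over all of them. Calls needed an adjusted p below 0.1 and more than 1.5-fold change. The interaction of batch and group was a second fit. Alternatives on the recovered reads used edgeR 4.0.16, with its quasi-likelihood test, and DESeq2 1.42.0; others changed the pseudocount, the filter, the scaling or the batch model, or used each batch alone or left out 1 library. No 2 libraries of a group and batch agreed within sampling noise (chi-square per degree of freedom 4.28 to 8.05).

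Groups and batches were read from the sample titles, and promoters came from RefSeq on GRCh38.p14. Every receptor was to be named, with values by library for those called, and of each other list its called genes with the 3 largest changes and CELSR1 to CELSR3; NRXN2, RTN4RL2, PRICKLE1, ARRB1 and GNAI1 were named beyond that rule, after their values were seen. The ratio of ADGRL2 to ADGRL1 reads was also outside the plan. INS, CDKN1A and MKI67 checked the labels. The receptors and lists were chosen with earlier results of these data known.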

Additional observations from a re-analysis of the deposited data

Results flagged for a closer look

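One value stood far from the rest of its group. The normalised read count of ADGRL3 in the non-senescent library B1 was 27.1 (18 reads), while the next highest of the 6 non-senescent libraries was at 10.2. The gap was 0.653 of the range of the group, above Dixon's 95% critical value. Of 30 sets of 6 libraries examined this way (15 receptors in each of the groups), 1 was marked. In sets from a single normal population, chance alone marks about that many in every 20. These sets mix batches A and B, which were apart in both groups for 8 receptors, so that rate need not hold here. Without this library the log2 fold change of ADGRL3 was 2.04 (limma, adjusted p = 0.00172), against 1.61 with it.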

How the results depend on the processing

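Depth limits most receptors: 3 of 32 had no reads, 14 had too few for the chosen mean of 5, and libraries of batch B held 4672924 to 7063264 reads. Of 399 fold changes of the 15 receptors over 27 alternatives, 367 kept direction and side of the threshold, 29 lost the call and 3 changed sign. ADGRA1 stayed called in all 27, between 2.71 (pseudocount 8) and 5.20, and between 3.94 and 4.59 with 1 library left out. ADGRG1 lost its call in 11 of 14 alternatives and 10 of 12 left-out libraries (0.55 to 0.82; adjusted p = 0.117 by edgeR and 0.138 by DESeq2), and kept it without non-senescent B4 (0.78) and without senescent B1. ADGRL3 (1.82, adjusted p = 0.113) and ADGRD1 (-0.91, 0.129) lost theirs in batch B alone, ADGRG5 (-0.63, 0.274) and ADGRL1 (0.57) in batch A alone, and ADGRF1, ADGRF3 and ADGRL1 with no batch term. edgeR and DESeq2 called 8 receptors each, and 3238 and 3223 of all genes, against 9 and 3237.

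With no batch term, 2143 genes and 5 receptors were called, 1 gene of the planar polarity list and 0 PDZ scaffolds. With a mean of at least 20, 5 receptors and 3 G protein and effector genes were called, since fewer genes were tested. In batch A alone, 8 ligands and 2 PDZ scaffolds were called, ADGRG2 was at 0.13 and ADGRG4 at -0.26; in batch B alone, 0 PDZ scaffolds. Leaving out 1 library gave 1 to 2 PDZ scaffolds (2 without non-senescent B4 or senescent B3), and -0.19 to 0.062 for ADGRG2 (0.062 without non-senescent B1). For the other moves the cause was not tested. Samples that share a number in their titles did not deviate together (correlations -0.05 to 0.02), so the numbers were not taken as pairs. With a replicate block, 8 receptors (ADGRG1 lost, adjusted p = 0.111) and 3211 genes were called, and the block changed no other call of a receptor.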
